A study of Triticum aestivum with 54 samples.

Results

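Of the 61115 probe sets on a wheat expression array, 100 were taken because the parents of a synthetic wheat differed one way in leaf and the other way in young inflorescence. The score of a probe set was the smaller of 2 differences of log2 means, Ae. longissima minus T. urartu in leaf and T. urartu minus Ae. longissima in young inflorescence, and the 100 highest scores were taken. The members were thus selected on the levels of the parents in both tissues, and these levels are given as a description, with no test. The levels in the synthetic allotetraploid and the natural tetraploids played no part in the choice and could be tested. The arrays of the RNA mixture were not used in the choice either, but the mixture holds parental RNA. Its levels therefore follow from those of the parents, and it serves as the level to compare with.

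AT2 is a synthetic allotetraploid wheat (genome SlSlAA) made by crossing Ae. longissima TL05 (SlSl, female parent) with T. urartu TMU06 (AA, male parent) and doubling the hybrid with colchicine, and its selfed generations S5, S6, S7 and S8 were measured separately. These generations descend from the same line, so they are not independent allopolyploids. TD (T. turgidum ssp. dicoccoides) and TTR13 (T. turgidum ssp. durum) are natural tetraploids of genome BBAA, so that neither carries the Sl genome, and each is a single line. Mix is parental RNA combined 1:1 in the tube, and the sources used here do not say whether its RNA pools were those of the parental arrays. Each of the 9 genotypes had 3 arrays from the second leaf of seedlings aged 3 weeks and 3 arrays from young inflorescence at booting, 54 arrays in all, each from pooled plants, with all lines grown in the same chambers. The array was designed on hexaploid wheat and reads the summed transcripts of a gene's copies from both subgenomes.

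In an allopolyploid, diverged copies of a gene from both parents work in a common nucleus, each with its own control sequences but exposed to the regulators of both genomes. A 1:1 mixture of parental RNA shows the summed level before the genomes meet, and an allopolyploid that keeps that level is called additive. The mature leaf blade is dominated by photosynthesis, whereas the young inflorescence at booting holds dividing and differentiating floral tissue.

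The tissue labels were checked with 3 lists. Of 19 analysed probe sets for photosynthesis genes, 17 were lower in young inflorescence than in leaf in each of the 9 genotypes. Of these 19, 13 read a single chloroplast gene, rbcL, and 1 is a member. For histones H2A and H2B and tubulin, 23 to 25 of 26 probe sets were higher in young inflorescence, depending on the genotype. Raftin, an anther protein, had 1 analysed probe set, whose young inflorescence minus leaf difference lay between -1.43 and 0.00086 log2 units. Replicate arrays correlated at 0.964 to 0.996 over the analysed probe sets, lowest among the TTR13 leaf arrays, and over the 100 members the lowest correlation was 0.922, among the S6 leaf arrays, which also had the largest median SD of the members (0.253). The median of all probe sets on an array lay between 4.69 and 4.92. A level is hereafter a log2 value, and a level below the array's own median is called dim.

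In leaf the members had a median level of 6.80 in Ae. longissima and 5.17 in T. urartu, whereas in young inflorescence it was 7.79 in T. urartu and 6.52 in Ae. longissima. The leaf difference between parents had a median of 1.13 (0.846 to 3.47), and the young inflorescence difference a median of 1.09 (0.847 to 3.46), with both differences at or above 1 in 47 members. The arrays of the parents overlapped in neither tissue in 98 members, which the rule favours by taking large parental differences. The share over all probe sets was not computed. In T. urartu leaf 36 members were dim on all 3 arrays, against 7 in Ae. longissima leaf, so the leaf difference of those members was measured against a dim level. In the names that follow, the point that the deposited table puts between the prefix (Ta or TaAffx) and the cluster number is left out. The score was 2.19 at rank 1, 1.00 at rank 50, 0.845997 at rank 100 (Ta13610.1.A1_at) and 0.845925 at the next probe set outside (TaAffx92071.1.S1_at), so that membership at the border rested on a very small margin. The opposite pattern, T. urartu higher in leaf and Ae. longissima higher in young inflorescence, reached that border in 41 probe sets.

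**Figure D1:**
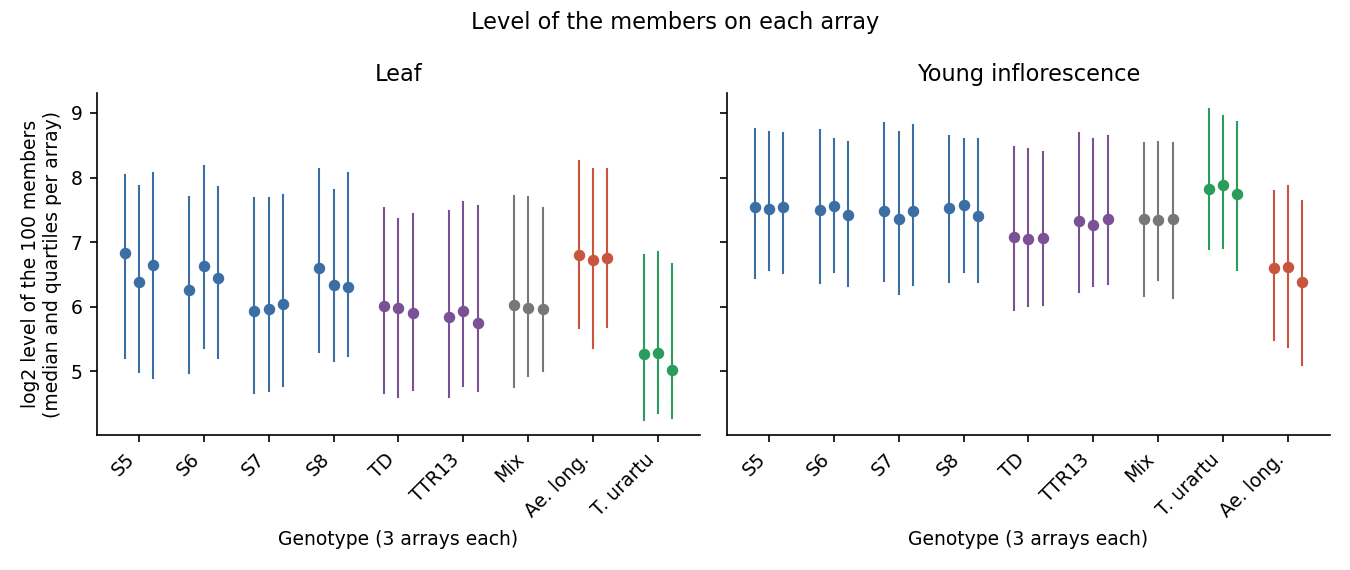
Level of the 100 members on every array (log2), with points for the median over members, vertical lines for the quartiles, and leaf and young inflorescence side by side. In leaf the S7 medians of 5.94 to 6.05 overlap those of Mix (5.97 to 6.02), whereas the S5, S6 and S8 medians lie between 6.26 and 6.83; the young inflorescence medians of all AT2 arrays lie between 7.35 and 7.58.

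The member with the highest score, Ta10831.1.S1_at, shows the pattern in full. In leaf it read 10.15, 10.01 and 9.71 in Ae. longissima, against 7.49, 7.37 and 6.73 in T. urartu. In young inflorescence it read 8.43, 8.65 and 8.62 in T. urartu, against 6.32, 6.39 and 6.43 in Ae. longissima. No array of a parent came near those of the other in either tissue. Leaf arrays of AT2 ran from 8.22 through a median of 8.70 to 9.43, against 9.11, 9.29 and 8.84 in Mix, a difference of -0.35 ± 0.13 log2 units (SE) that was not called. Young inflorescence arrays of AT2 ran from 7.96 through 8.22 to 8.51, against 7.92, 8.04 and 7.97 in Mix (0.24 ± 0.09, not called). The leaf arrays of AT2 and Mix overlapped, and in both tissues AT2 lay between its parents. TD was another case in young inflorescence, where its 3 arrays read 6.14, 5.78 and 6.01, below those of Ae. longissima and below Mix by 2.00 ± 0.11 (limma, adjusted p = 1.75e-12), whereas in leaf TD read 9.11, 8.97 and 9.03 and was within the range of Mix (-0.04 ± 0.17). A difference was called here when its Benjamini-Yekutieli adjusted p was under 0.05 in a limma fit over all analysed probe sets.

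**Figure D2:**
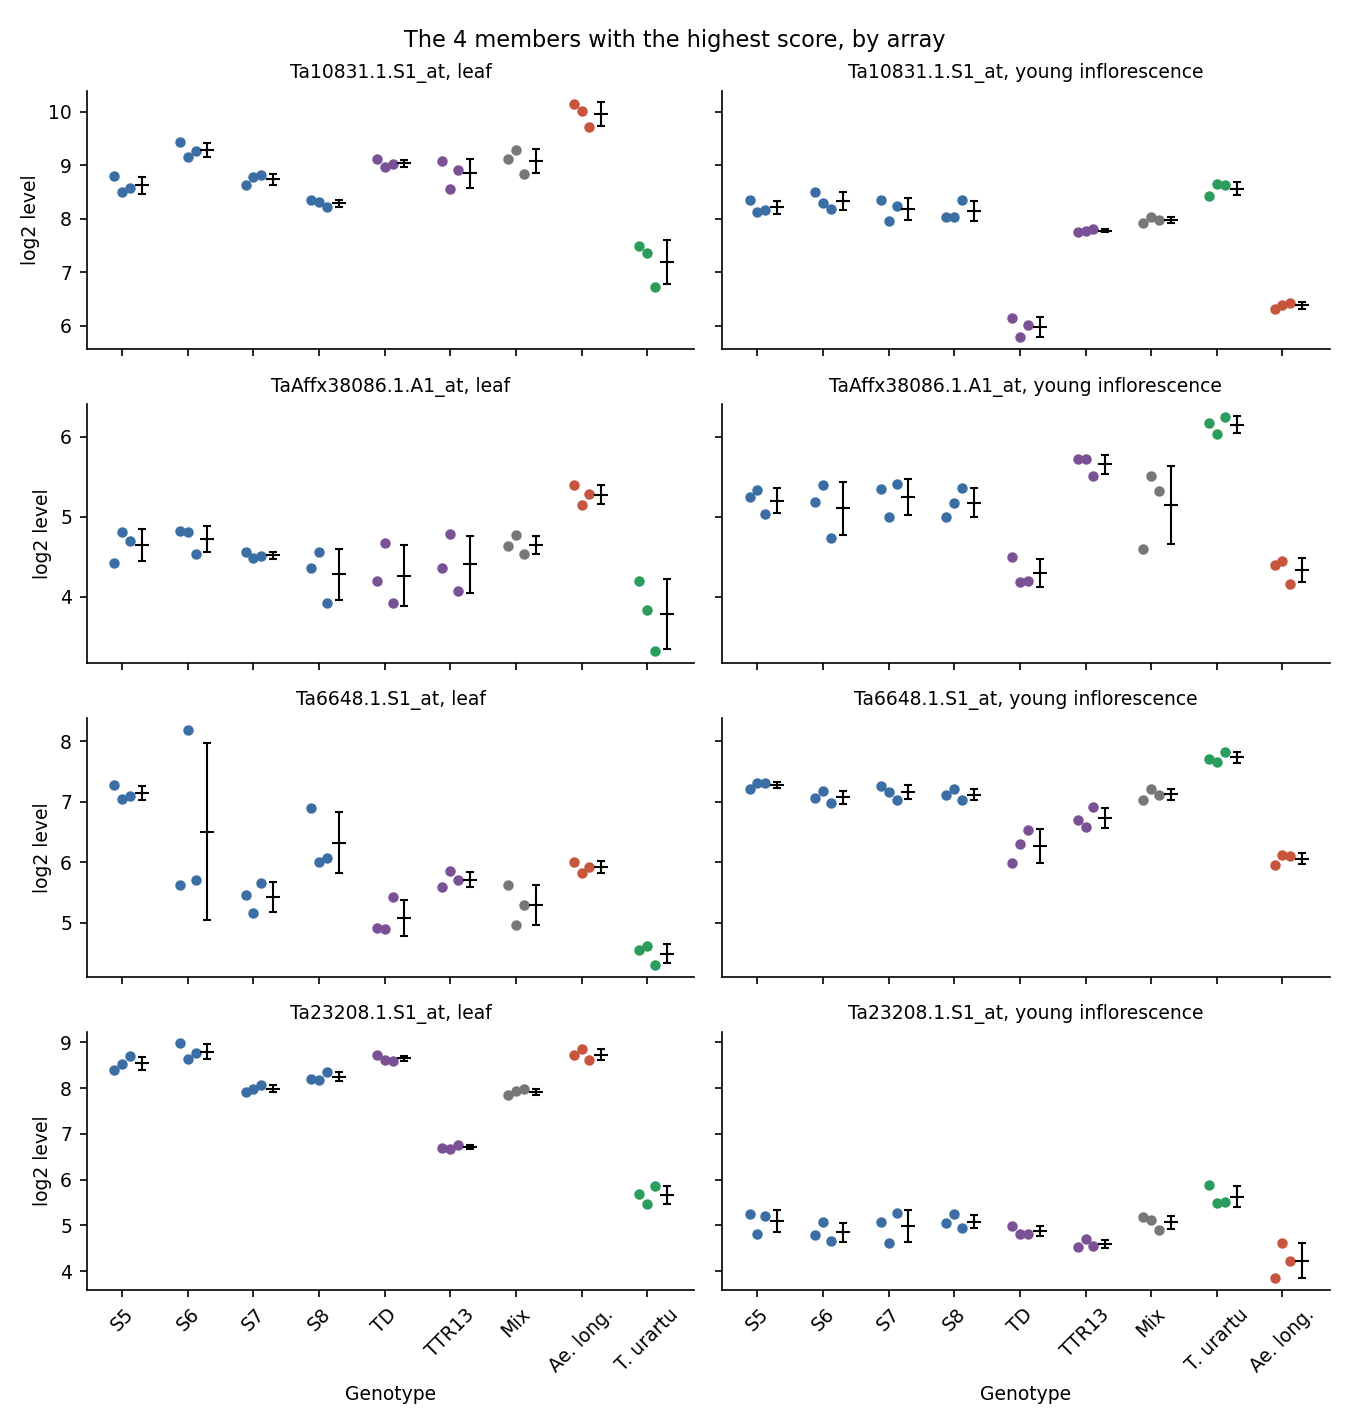
Array values (points, log2 level) with mean and SD (n = 3) of the 4 members with the highest scores in each genotype, leaf in the first column and young inflorescence in the second, each row with its own scale. Ta10831.1.S1_at is high in Ae. longissima leaf and T. urartu young inflorescence, and 1 S6 leaf array of Ta6648.1.S1_at stands at 8.19, apart from the other leaf arrays.

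Other members near the top of the score behaved differently from each other. TaAffx38086.1.A1_at was dim in leaf of S7, S8, TD, T. urartu and Mix and in the young inflorescence of TD and Ae. longissima and did not pass the level filter in leaf. Its young inflorescence level was lower in TD (4.49, 4.19 and 4.19) than in Mix (4.60, 5.52 and 5.33), by 0.86 ± 0.18 (adjusted p = 0.00437, limma), a call that was lost without Mix replicate 2 (-0.67, adjusted p = 0.0594). Ta6648.1.S1_at varied widely in AT2 leaf, from 5.16 through a median of 6.03 to 8.19, against 5.63, 4.96 and 5.29 in Mix. The S5 arrays averaged 7.14 ± 0.12 (SD, n = 3) and the S7 arrays 5.42 ± 0.25, and the difference of AT2 from Mix, 1.06 ± 0.32, was not called. Ta16112.1.S1_at was a young inflorescence transcript, at 10.97 to 11.45 in AT2 against 11.07, 11.15 and 11.18 in Mix, and far lower in the leaf of every genotype.

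Measured over all 100 members on a scale where 0 is the lower and 1 the higher parental mean, AT2 stood at a median of 0.657 in leaf and 0.722 in young inflorescence, against 0.529 and 0.652 in Mix. The mean of the parents taken on the linear scale would stand at 0.595 and 0.592. In leaf the AT2 mean lay between the parents in 77 members, above Ae. longissima in 19 and below T. urartu in 4. In young inflorescence it lay between them in 89, above T. urartu in 11 and below Ae. longissima in 0. The scale rests on the parental means that chose the members, and their large parental gaps favour levels between the parents. No share over all probe sets was computed, so these counts are a description. By generation the leaf median was 0.663 in S5, 0.690 in S6, 0.501 in S7 and 0.716 in S8, so that S7 stood nearest to Mix. Mix itself lay between the parents in 98 members in leaf and 97 in young inflorescence, and differed from the log2 of the linear parental mean by a median of -0.08 in leaf and 0.04 in young inflorescence, against -0.11 and -0.09 over all probe sets.

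**Figure D3:**
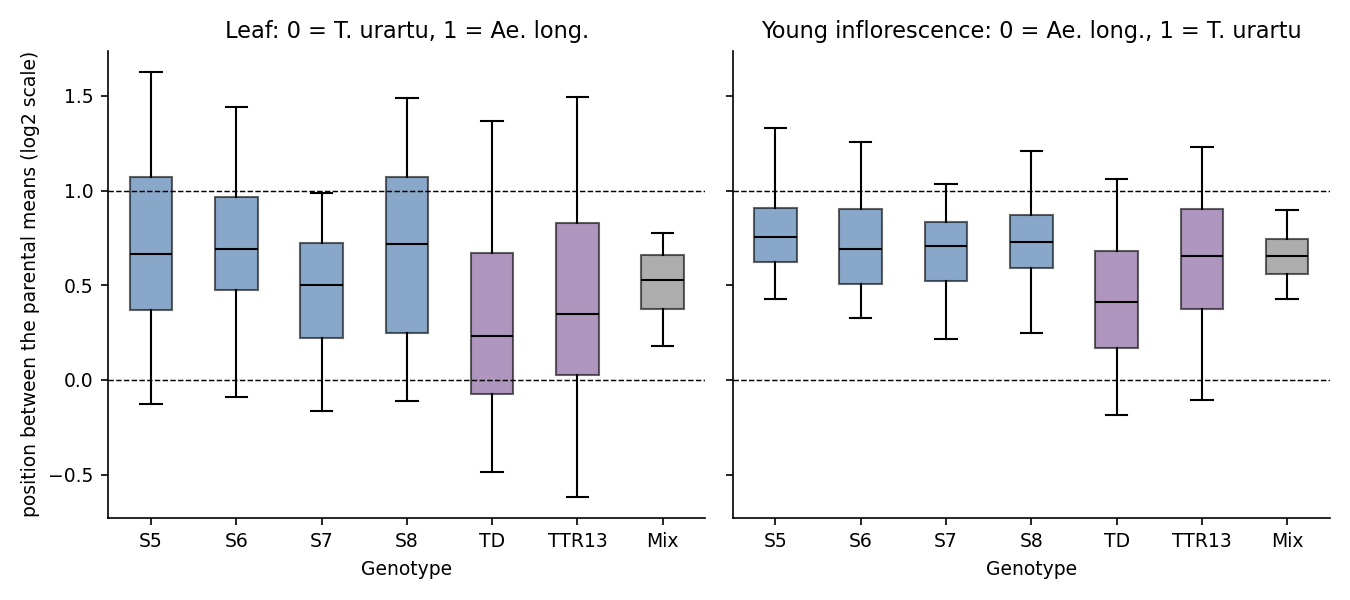
Position of each member between the parental means, on the log2 scale, for the 4 AT2 generations, TD, TTR13 and Mix: boxes give the quartiles and median over 100 members, and whiskers the 5th and 95th percentiles. TD has the lowest medians, 0.234 in leaf and 0.409 in young inflorescence, and Mix has the narrowest spread.

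Tests in a tissue were run on probe sets with all 3 arrays of some genotype above the 65th percentile of the array. The filter passed 69 members in leaf and 88 in young inflorescence, 64 in both and 93 in either, and it can pass a member through the parent in which it is high. The 31 members not analysed in leaf and the 12 not analysed in young inflorescence have levels but no test there.

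In leaf, AT2 differed from Mix in 24 of 69 analysed members (34.8%), of which 16 were higher and 8 lower, whereas 24.7% of all 25940 analysed probe sets were called, 16.2% higher and 8.56% lower. The median difference was 0.25 in the members and 0.03 in all analysed probe sets. Without Mix replicate 3 the count was 14 members (10 higher, 4 lower), and without Mix replicate 2 it was 16 (12 and 4). Here and below, counts under such alternatives come without a share over all probe sets. They show only how the number of called members moved, not whether the members stand out. Against the mean of the parents' log2 levels, which chose the members, 27 were higher and 7 lower. Among the 64 members analysed in both tissues 21 were called in leaf and 14 in young inflorescence, with 2 (3.12%) in both, against 25.2%, 26.7% and 9.16% of the 21357 probe sets analysed in both. The 12 AT2 arrays and the 3 Mix arrays did not overlap in 9 analysed members with AT2 higher and 3 with AT2 lower, against 9.85% and 4.19% of all analysed probe sets.

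Ta10089.2.S1_a_at was called in both tissues in the same direction. Its AT2 leaf arrays ran from 6.77 through 7.39 to 7.74, against 5.97, 6.27 and 6.26 in Mix, 1.18 ± 0.12 higher (limma, adjusted p = 9.41e-07). The leaf level was 6.82, 7.14 and 6.87 in Ae. longissima and 3.36, 3.54 and 3.53 in T. urartu, dim on each array, so that most AT2 arrays exceeded those of the higher parent. In young inflorescence AT2 read 6.42 to 7.27, with a median of 6.87, against 6.18, 6.35 and 5.87 in Mix (0.70 ± 0.14, adjusted p = 0.00223). That call was lost without young inflorescence Mix replicate 3 (0.57, adjusted p = 0.0670). In leaf TTR13 read 4.99, 4.52 and 5.03, lower than Mix by 1.32 ± 0.15, whereas in young inflorescence it read 6.89, 6.77 and 6.96 and was 0.74 ± 0.17 higher (limma, adjusted p = 7.68e-07 and 0.00729).

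The other named members with higher AT2 leaf levels and no overlap with Mix shared a small difference in young inflorescence. Ta16985.3.S1_a_at ran from 6.39 through 7.20 to 8.17 in AT2 leaf, against 6.14, 5.96 and 5.65 in Mix, 1.29 ± 0.17 higher (limma, adjusted p = 4.62e-05). TaAffx30678.1.S1_s_at ran from 6.98 through 7.85 to 8.62, against 6.76, 6.73 and 6.70 in Mix (1.07 ± 0.15, adjusted p = 0.000100). Ta15725.1.S1_s_at ran from 8.07 through 8.47 to 9.31, against 7.71, 7.71 and 7.46 in Mix (1.01 ± 0.20, adjusted p = 0.00446), and lost its call without Mix replicate 3 (0.92, adjusted p = 0.0723). In young inflorescence the 3 members differed from Mix by 0.27 ± 0.08, 0.20 ± 0.06 and -0.01 ± 0.07, none of them called. Ae. longissima leaf, the higher parent, averaged 6.61 ± 0.33 for Ta16985.3.S1_a_at and 7.48 ± 0.13 for TaAffx30678.1.S1_s_at (SD, n = 3), and the AT2 medians exceeded both.

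Of the members with lower AT2 leaf levels, Ta12952.3.S1_s_at differed most from Mix in leaf among the named members. Its AT2 leaf arrays ran from 4.53 through 5.06 to 5.42, against 6.62, 6.71 and 6.74 in Mix (-1.65 ± 0.13, limma, adjusted p = 2.68e-08). The leaf arrays of T. urartu read 4.79, 5.00 and 4.42 and those of Ae. longissima 7.69, 7.20 and 7.35, and the AT2 leaf means of 5.09, 5.37, 5.01 and 4.67 in S5 to S8 lay nearer to T. urartu, only that of S8 within the range of its arrays. In young inflorescence AT2 read 7.16 to 7.58, with a median of 7.49, against 7.02, 7.16 and 7.07 in Mix, and was 0.36 ± 0.10 higher (adjusted p = 0.0446). TD leaf read 8.29, 8.41 and 8.50 and TTR13 leaf 8.93, 8.34 and 8.68, higher than Mix by 1.71 ± 0.16 and 1.96 ± 0.16 (limma, adjusted p = 5.45e-08 and 4.81e-09). Leaf levels of this member were therefore higher than Mix in both natural tetraploids and lower than Mix in AT2. The suffix of its name marks probes that match transcripts of more than a single gene, so the gene behind the level is uncertain.

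Ta8481.1.S1_at was lower in AT2 leaf with narrow replicates, from 9.13 through 9.66 to 9.73, against 10.05, 10.10 and 10.12 in Mix (-0.53 ± 0.06, limma, adjusted p = 2.19e-06). TD leaf (8.78, 8.64 and 8.67) and TTR13 leaf (8.10, 8.15 and 8.20) were lower still, by 1.39 ± 0.07 and 1.94 ± 0.07, and lay below all arrays of T. urartu (8.89, 8.95 and 8.94). TaAffx50835.1.S1_at ran from 6.998 through 7.16 to 7.53 in AT2 leaf, against 7.74, 7.67 and 7.70 in Mix (-0.50 ± 0.13, adjusted p = 0.0359). That call was lost without any of the 3 Mix arrays or any of 7 of the AT2 arrays, with adjusted p up to 0.197. Ta10502.1.S1_at had a lower AT2 mean (-0.75 ± 0.14, adjusted p = 0.00215), but its generations differed, with S5, S6, S7 and S8 at 4.67, 5.39, 3.84 and 3.90, against 5.25, 5.25 and 5.11 in the Mix arrays. The S7 and S8 leaf levels of that member were dim.

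In young inflorescence AT2 differed from Mix in 16 of 88 analysed members (18.2%), 11 higher and 5 lower, against 28.1% of all 25323 analysed probe sets (16.4% higher and 11.7% lower). The median difference was 0.10 in the members and 0.03 in all analysed probe sets. Arrays did not overlap in 12 analysed members with AT2 higher and 2 with AT2 lower, against 13.8% and 8.93% of all. The count depended on the expectation: set against the log2 of the linear parental mean it was 30 members, and against the mean of the parents' log2 levels 51, all higher, although both use the parental values that chose the members. Without Mix replicate 3 the members called higher than Mix were 7.

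Ta6415.1.S1_s_at had young inflorescence levels of 6.83 to 7.61, with a median of 7.35, in AT2, against 6.31, 6.63 and 6.496 in Mix (0.83 ± 0.16, limma, adjusted p = 0.00238). TTR13 (7.82, 7.57 and 7.67) was 1.21 ± 0.21 higher than Mix (adjusted p = 0.000222), and TD (mean 7.08) was not called. Ta9149.2.S1_a_at ran from 7.32 through 7.98 to 8.15 in AT2, against 7.06, 7.26 and 7.10 in Mix (0.73 ± 0.10, adjusted p = 6.70e-05), and TTR13 again was higher than Mix, by 1.23 ± 0.13. In these 2 members most AT2 arrays exceeded the arrays of T. urartu, the higher parent in this tissue. Ta9210.1.S1_a_at ran from 6.51 through 6.81 to 7.05 in AT2, against 6.15, 6.49 and 6.15 in Mix (0.55 ± 0.10, adjusted p = 0.000828), between the parents.

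The lower AT2 levels in young inflorescence included TaAffx84221.3.S1_s_at, which ran from 6.38 through 6.71 to 6.97 in AT2, against 7.22, 7.33 and 7.36 in Mix (-0.60 ± 0.11, limma, adjusted p = 0.00188). Its parents read 7.81, 7.92 and 8.01 in T. urartu and 5.62, 5.23 and 5.14 in Ae. longissima, so that Mix lay toward T. urartu and AT2 near the middle of the log2 scale. Set against the mean of the parents' log2 levels the difference had the opposite sign, at 0.09.

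The difference of AT2 from Mix was itself unlike between the tissues in 16 of 93 members (17.2%), with 7 more positive in young inflorescence and 9 more negative, against 18.4% of 29906 probe sets (7.57% and 10.8%). Without leaf Mix replicate 2 the more positive members were 4. Ta12952.3.S1_s_at had the value 2.01 ± 0.16 (0.36 in young inflorescence, -1.65 in leaf; limma, adjusted p = 4.28e-12). Ta8481.1.S1_at also had a positive value, with 0.30 in young inflorescence and -0.53 in leaf (0.83 ± 0.11, adjusted p = 8.47e-07). TaAffx84221.3.S1_s_at ran the other way, with -0.60 in young inflorescence and 0.71 in leaf (-1.31 ± 0.32, adjusted p = 0.0157), and its Mix leaf arrays were dim. That call was lost without leaf Mix replicate 2 or young inflorescence Mix replicate 3 (adjusted p = 0.116 and 0.0613). The leaf difference of TaAffx84221.3.S1_s_at from Mix was not itself called. Its leaf means in S5 to S8 were 5.82, 4.87, 3.87 and 5.25, against 4.24 in Mix, so that S7 lay below Mix and the other generations above.

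**Figure D4:**
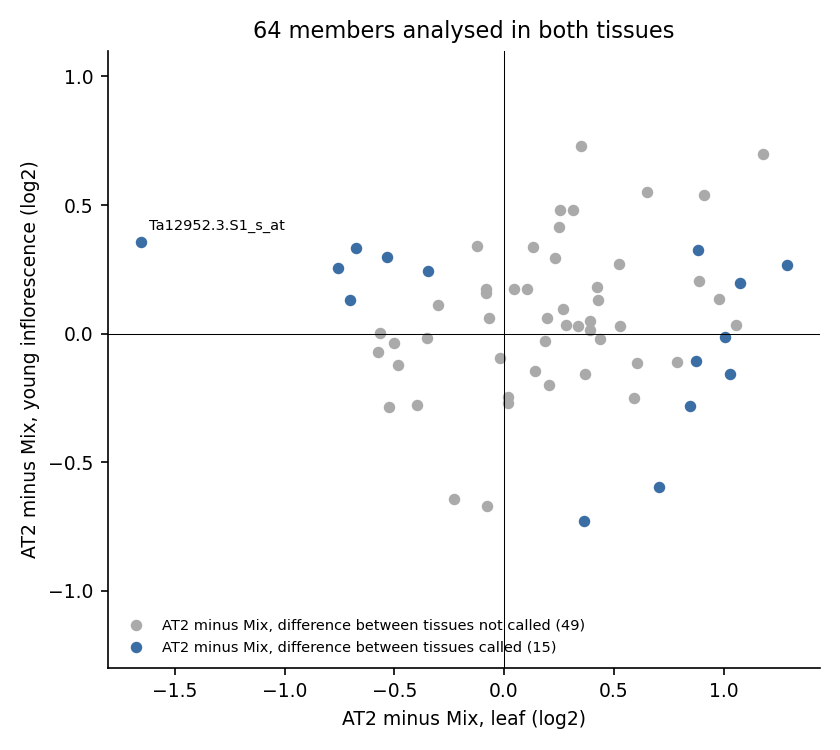
AT2 minus Mix in young inflorescence (vertical) against AT2 minus Mix in leaf (horizontal), log2 units, for the 64 members analysed in both tissues; blue points are the 15 whose difference between tissues was called. Leaf differences run from -1.65 to 1.29 and young inflorescence differences of the plotted members stay between -0.73 and 0.73.

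The 4 generations of AT2 differed among themselves in 34 of 69 members in leaf (49.3%, against 35.3% of all analysed probe sets) and in 4 of 88 in young inflorescence (4.55%, against 9.61%). The range of the generation means had a median of 0.76 in leaf and 0.263 in young inflorescence and reached 1 in 23 members in leaf and 2 in young inflorescence. With only the AT2 arrays in the fit the leaf count was 18, and the young inflorescence count was 2 without any of S5 replicate 2 or 3, S6 replicate 2, S7 replicate 1 or 3, or S8 replicate 1. Of the 34 members called in leaf, 22 (64.7%) were lowest in S7, against 30.3% of all 9155 probe sets called there. Ta10831.1.S1_at averaged 8.62 in S5, 9.29 in S6, 8.74 in S7 and 8.29 in S8, and Ta93.1.S1_at 5.37, 6.59, 5.84 and 5.34 (limma F test, adjusted p = 0.00394 and 0.000491). TaAffx70677.1.S1_at averaged 8.10, 6.11, 7.72 and 6.66 in the 4 generations (adjusted p = 2.90e-05). The 4 members called in young inflorescence, Ta2927.1.S1_s_at, Ta14549.1.S1_at, TaAffx33684.1.S1_at and Ta12852.1.A1_at, had ranges of 0.735, 0.412, 0.259 and 1.08. Whether seedling development, growth batch or generation moved with these leaf levels was not tested, since each generation had 1 set of 3 arrays a tissue.

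The natural tetraploids were compared with the same Mix arrays. TD was called lower than Mix more often than higher in both tissues. TTR13 was so in leaf, where all analysed probe sets leaned the same way and had a lower median difference than the members. In young inflorescence TTR13 had no settled balance. In leaf TD was called in 30 of 69 members (11 higher, 19 lower; 43.5%, against 36.6% of all analysed probe sets, 18.3% in each direction) and TTR13 in 28 (11 higher, 17 lower; 40.6%, against 38.4%, with 17.1% higher and 21.3% lower). In young inflorescence TD was called in 38 of 88 (6 higher, 32 lower; 43.2%, against 36.9%, with 16.1% higher and 20.9% lower) and TTR13 in 36 (17 higher, 19 lower; 40.9%, against 46.7%, with 25.8% higher and 20.9% lower). The median differences of TD from Mix were -0.24 in leaf and -0.22 in young inflorescence, against -0.10 over all analysed probe sets in each tissue, and those of TTR13 were -0.02 and -0.03, against -0.13 and -0.02. The balance of TTR13 in young inflorescence was 21 higher and 13 lower after median centring and 13 higher and 31 lower after quantile normalization. It was 18 and 15 without Mix replicate 2, 16 and 13 without Mix replicate 3, and 17 and 14 without TTR13 replicate 2. In young inflorescence the higher TD calls were 2 without Mix replicate 1. In leaf the higher calls were 7 without TD replicate 1 for TD, and 7 without TTR13 replicate 2 or Mix replicate 3 for TTR13.

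Ta93.1.S1_at was higher in leaf in both, at 7.58, 7.82 and 7.61 in TD and 7.12, 7.83 and 7.43 in TTR13, against 5.69, 5.80 and 5.81 in Mix (1.90 ± 0.20 and 1.70 ± 0.20, limma, adjusted p = 2.51e-07 and 1.48e-06). These leaf levels exceeded those of Ae. longissima (6.77, 6.77 and 6.97), whereas AT2 ran from 5.07 through 5.50 to 6.68 and averaged 0.02 ± 0.16 above Mix. Ta23208.1.S1_at separated the 2 natural lines in leaf, with TD at 8.71, 8.62 and 8.60 and TTR13 at 6.70, 6.67 and 6.76, against 7.84, 7.93 and 7.97 in Mix. TD was 0.73 ± 0.11 higher than Mix and TTR13 1.21 log2 units lower (limma, adjusted p = 4.35e-05 and 1.49e-08), although the 2 lines were not compared with each other by a test.

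Probe sets Ta9760.2.S1_at and Ta9760.1.A1_at, ranked 9 and 10, come from the same sequence cluster of the array design and may read the same gene. In leaf both were lower in TD than in Mix, by 0.47 ± 0.12 and 0.72 ± 0.11, although the call of Ta9760.2.S1_at was lost without any of the 6 TD or Mix arrays (adjusted p up to 0.153). In young inflorescence both were higher in TTR13 than in Mix, by 0.78 ± 0.15 and 0.36 ± 0.08 (limma, adjusted p = 0.000732 and 0.00587). The second of these calls was lost without TTR13 replicate 3 (0.32, adjusted p = 0.0557). AT2 was called higher for Ta9760.2.S1_at alone in young inflorescence (6.30 through 6.54 to 6.76, against 5.65, 6.25 and 6.27 in Mix, 0.48 ± 0.12), and not without Mix replicate 1 (0.28, adjusted p = 0.691).

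Between tissues, the members were of 3 kinds. In 45 both parents were higher in young inflorescence than in leaf, in 15 both were lower, and in 40 T. urartu was higher and Ae. longissima lower. The median difference over members was 2.55 in T. urartu and -0.13 in Ae. longissima. The rule fixes that this difference is larger in T. urartu for every member. Among the 45 it was 4.01 in T. urartu and 1.36 in Ae. longissima, among the 40 it was 1.73 and -0.94, and among the 15 it was -0.72 and -3.45.

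Young inflorescence and leaf differed in AT2 in 88 of 93 analysed members (94.6%), 67 higher and 21 lower in young inflorescence, against 80.8% of 29906 probe sets (44% higher and 36.8% lower). The counts were 78 in TD (60 higher, 18 lower; 83.9%, against 67.7%, with 37.9% higher and 29.8% lower), 82 in TTR13 (65 and 17; 88.2%, against 74.3%, with 41.9% and 32.4%) and 83 in Mix (63 and 20; 89.2%, against 71.4%, with 39.5% and 31.9%). The direction in Mix follows from the parents, whose RNA it holds, and is given as a description. The rule also favours a large tissue difference in at least 1 parent of each member. AT2 carries both parental genomes, and TD and TTR13 carry an A genome as T. urartu does. Their larger shares than over all probe sets are therefore favoured by the choice and are a description too. All 45 members higher in young inflorescence in both parents were called higher in AT2, 44 in each of TD and TTR13, and 45 in Mix, against 89%, 77.1%, 79.7% and 85% of the 12667 analysed probe sets with that parental direction. All 15 members lower in both parents were called lower in AT2, 13 in each of TD and TTR13, and 15 in Mix, against 79.7%, 63.6%, 67.4% and 73.8% of 11783. These 45 and 15 members were sorted by the parental arrays that chose them, whereas the 12667 and 11783 probe sets needed only a parental difference of that sign. Higher shares in the members are therefore favoured by the choice, and these counts are a description. Of the 40 members in which the parents went opposite ways 33 were analysed, and of these 22 were called higher and 6 lower in AT2, 16 and 5 in TD, 21 and 4 in TTR13, and 18 and 5 in Mix. No share over all probe sets with opposite parental directions was computed for these 33, so their counts are a description. In whole tissue, fewer cells of a type and less RNA in each cell cannot be told apart.

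**Figure D5:**
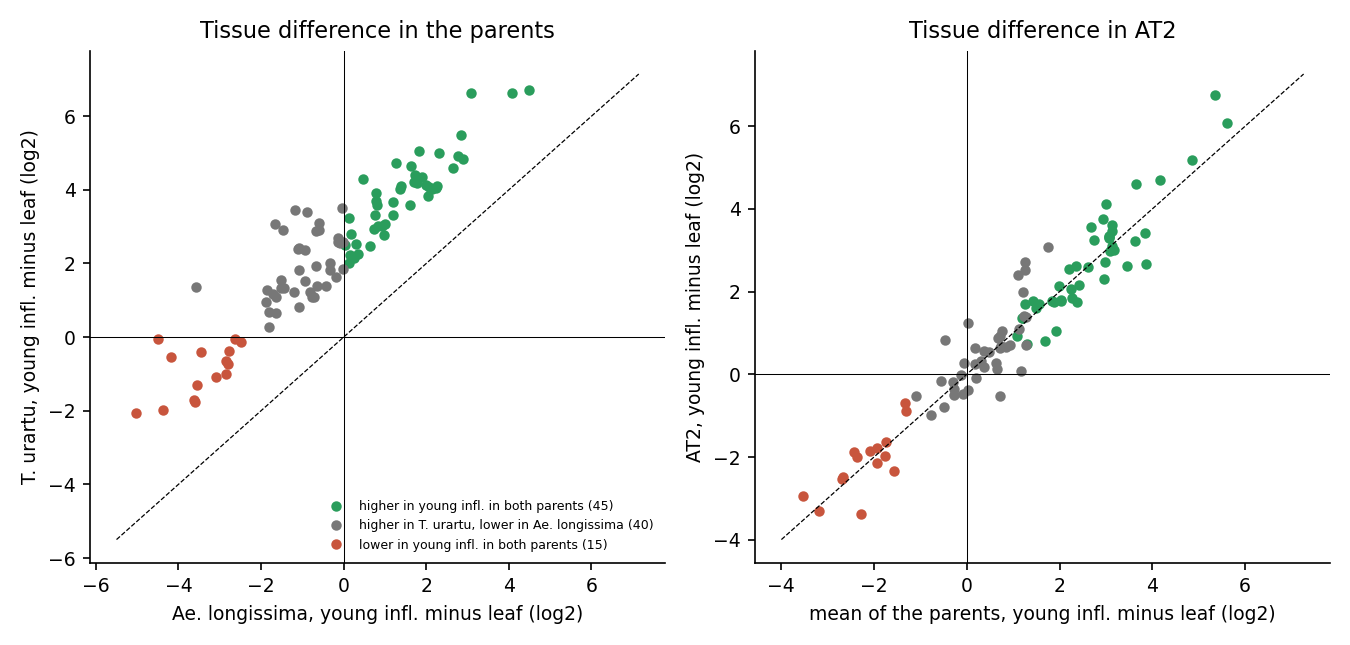
Young inflorescence minus leaf (log2 units) of the 100 members, in T. urartu against Ae. longissima on the left and in AT2 against the mean of the parents on the right, with the dashed line for equal values. Every member lies above the line on the left, as the rule requires, and the 3 colours mark the 45, 40 and 15 members by their direction in the parents.

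The member with the highest rise between tissues in AT2 was Ta16015.1.S1_at, with young inflorescence arrays of 10.98 to 11.18 (median 11.07) and leaf arrays of 3.62 to 6.32 (median 4.16), a difference of 6.75 ± 0.14 (limma, adjusted p = 1.78e-35). Its leaf level was dim in S5, S7, S8, TD and TTR13 and was 6.43, 6.10 and 5.93 in Ae. longissima. Ta6938.1.S1_at rose by 6.07 ± 0.07, with young inflorescence levels of 10.27 to 10.94 in AT2 and leaf levels of 3.85 to 5.70, which were dim in S5 and S7. Ta23208.1.S1_at fell by 3.39 ± 0.07, with 4.61 to 5.28 in young inflorescence and 7.92 to 8.98 in leaf of AT2. TaAffx70677.1.S1_at fell by 3.31 ± 0.11, and its young inflorescence level was dim in every genotype except T. urartu.

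The array annotation used here pairs 1273 probe sets with a single gene, among them 5 members, and gives a usable name to 1 of these. TaAffx128414.181.S1_at reads rbcL, the chloroplast gene for the large subunit of Rubisco, which fixes CO2 in photosynthesis. The account of gene copies from both subgenomes in a common nucleus does not cover a chloroplast gene. Mix therefore serves here as a reference level and not as an additive expectation. Its leaf arrays read 9.94, 9.49 and 9.72 in Ae. longissima and 8.86, 8.94 and 8.54 in T. urartu, and its young inflorescence arrays 7.05, 7.09 and 6.88 in T. urartu and 6.45, 6.04 and 5.85 in Ae. longissima. In leaf TTR13 read 10.47, 10.43 and 10.31, against 9.51, 8.81 and 8.84 in Mix (1.35 ± 0.19, limma, adjusted p = 3.75e-05), and AT2 (8.35 through 8.91 to 9.75) was not called. In young inflorescence AT2, TD and TTR13 were lower than Mix, by 0.67 ± 0.13, 0.72 ± 0.17 and 0.72 ± 0.17, but Mix replicate 1 stood at 7.67 against 6.66 and 7.002 in the other Mix arrays, and without it none of the 3 calls held (adjusted p = 0.139, 0.143 and 0.113). Of the 13 analysed probe sets for rbcL, 11 were higher in Ae. longissima leaf, 6 were higher in T. urartu young inflorescence, and 1 was a member.

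The other 4 annotated members carry only a locus number in the annotation, so no function is given to them. TaAffx65068.1.A1_at (LOC780692) was lower in TTR13 than in Mix in both tissues, with 6.13, 5.99 and 5.99 in TTR13 against 7.97, 7.96 and 7.75 in Mix in young inflorescence (-1.85 ± 0.15, limma, adjusted p = 1.13e-09) and a leaf difference of -1.68 ± 0.22. Ta2866.2.S1_a_at (LOC780672) was higher in TD leaf, with 8.89, 8.80 and 8.68 against 7.82, 7.997 and 8.02 in Mix (0.85 ± 0.19, adjusted p = 0.00785). That call was lost without Mix replicate 1 or TD replicate 1 (adjusted p = 0.0516 and 0.0503). Ta14528.1.S1_s_at (LOC780626) stood at 12.28 to 12.59 in AT2 young inflorescence, against 12.44, 12.51 and 12.50 in Mix, and AT2, TD and TTR13 were not called against Mix in either tissue. Ta93.1.S1_at, described above, is LOC542972.

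Features of the array names that the rule did not use also differed from the whole array. Suffixes for probes shared between transcripts were carried by 44 of the 100 members and 20.8% of all probe sets, and by 41 of the 93 members analysed in either tissue and 31.3% of all probe sets analysed in either tissue. Names with the prefix TaAffx made up 27 members and 48.6% of the array. The TaAffx share among probe sets analysed in either tissue, which are 93 of the members and 48.9% of the array, was not computed. The members came from 97 sequence clusters, and 48 of these had 137 other probe sets, of which 77 were analysed. Their directions were read from the parental arrays that chose the members, and probe sets of a cluster may read the same gene. Agreement is therefore favoured by the choice and is given as a description. The same direction in both tissues was seen in 40 of those 77 (51.9%), against 21.2% of all analysed probe sets. The leaf direction was the same in 65 of them and the young inflorescence direction in 49, against 56.3% and 52.3% of all analysed probe sets, with median differences of 0.49 and 0.13, and 3 were opposite in both tissues.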

How the data were processed

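Expression was measured on the Affymetrix Wheat Genome Array in 54 samples (9 genotypes, 2 tissues, 3 arrays each). The deposited values are log2 intensities that the authors made with RMA (background correction, quantile normalization and probe set summary), in a table of 61115 probe sets, and they were used as deposited. The submitters' processing notes also name MAS5 and limma, and present calls were not used here. Genotypes were read from sample titles, since the genotype label reads AT2 for every array. The members and the lists were chosen with earlier results of these data known.

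Fits used limma 3.58.1 in R 4.3.3 (lmFit and eBayes, 1 mean per genotype, no covariate), over all arrays of a tissue for genotype comparisons and over all 54 for tissue comparisons, with Benjamini-Yekutieli adjusted p under 0.05 over all analysed probe sets, following the study's methods. Probe sets were analysed where 3 arrays of at least 1 genotype exceeded the 65th percentile. AT2 minus Mix is the mean of S5 to S8 minus Mix, and all comparisons with Mix share its 3 arrays. The fits were tested on simulated data. Named members were the 10 highest scores, those annotated with 1 gene, up to 4 rises and 4 falls of AT2 minus Mix without overlapping arrays in each tissue, up to 2 rises and 2 falls between tissues in AT2, and the probe sets on either side of the border, plus the members called among generations in young inflorescence, named after their values were seen. Same-numbered replicates were checked for shared deviations and did not pair. Alternatives changed the adjustment, filter, scaling, arrays in the fit, expectation and replicates. The number of arrays, 3 per genotype and tissue, limits the precision, and p-values measure the spread between pooled samples. The SE and p-value of AT2 minus Mix rest on the spread of arrays within each genotype. They leave out the spread among the 4 generations. Marker lists covered photosynthesis, histone and tubulin, and raftin genes.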

Additional observations from a re-analysis of the deposited data

Results flagged for a closer look

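For 8 named members the difference of AT2 from Mix was itself unlike between the tissues (limma, adjusted p under 0.05 for young inflorescence minus leaf). The value was 2.01 for Ta12952.3.S1_s_at, 1.01 for Ta10502.1.S1_at, 0.830 for Ta8481.1.S1_at and 0.589 for Ta10831.1.S1_at, all more positive in young inflorescence. It was -1.31 for TaAffx84221.3.S1_s_at, -1.02 for Ta16985.3.S1_a_at, -1.02 for Ta15725.1.S1_s_at and -0.875 for TaAffx30678.1.S1_s_at, all more negative there. Ta10831.1.S1_at was the weakest of these, with adjusted p = 0.0454, and neither of its differences from Mix was called within a tissue. Of the 16 members with such a call, 7 were more positive and 9 more negative in young inflorescence, and the share among members, 17.2%, was close to the 18.4% of all analysed probe sets.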

How the results depend on the processing

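The counts in this section come without the share of all analysed probe sets under the same setting, so they show only how the member counts moved. With Benjamini-Hochberg adjustment the members called were 40 for AT2 minus Mix in leaf, 38 for the same in young inflorescence, 56 for TTR13 minus Mix in young inflorescence, 16 among generations in young inflorescence and 33 for the difference between tissues. With only the arrays of the groups compared 18 members were called among generations in leaf, and after quantile normalization 2 among generations in young inflorescence. TTR13 minus Mix in young inflorescence gave 34 calls after median centring, with more higher than lower, unlike 36 as deposited; quantile normalization moved the median of all probe sets from -0.02 to -0.12 there. AT2 minus Mix in young inflorescence gave 51 against the mean of the parents' log2 means and 30 against their linear mean. Both expectations use the parental values that chose the members, so these counts are descriptions. Under the mean of log2 means Ta14528.1.S1_s_at changed sign to 0.16 and TaAffx84221.3.S1_s_at to 0.0866. Leaving out probe sets of shared-probe suffixes left 56 of the members, which are those without a suffix and so fixed by the choice. With single arrays left out, counts ran from 14 to 28 (AT2 leaf, lowest without Mix replicate 3), 12 to 19 (AT2 young inflorescence), 24 to 27 and 29 to 35 (TD leaf and young inflorescence), 23 to 30 and 29 to 33 (TTR13, with more higher than lower without Mix replicate 2, Mix replicate 3 or TTR13 replicate 2), 28 to 40 and 2 to 5 (generations in leaf and young inflorescence, the 2 without S5 replicate 2 or 3, S6 replicate 2, S7 replicate 1 or 3, or S8 replicate 1), 11 to 20 (difference between tissues), 88 to 90, 75 to 79, 80 to 81 and 80 to 83 (young inflorescence minus leaf in AT2, TD, TTR13 and Mix), and 85 to 95 of the 100 members were retained. Of 51 called values of named members, 18 lost the call under some alternative. With the replicate number as a block 24 members were called in leaf and 16 in young inflorescence for AT2 minus Mix, and with the block no count of called members in another comparison moved by over 1.5 times. Dim levels in T. urartu leaf limit the leaf differences.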
